A study of Homo sapiens with 6 samples.

Results

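The genes described here are 34 genes of the integrated stress response, listed by name from what they are known for. The list was made with earlier results of these data known. Each was found as 1 row, by its Ensembl identifier, among the 58288 genes of the deposited table, and all 34 are described. Clones grown from single cells of K562, a human line of erythroleukemia, stably carried either 2KR-MYB, which cannot be conjugated to SUMO, or ANAA-MYB, whose SUMO-binding motif is mutated, both with 3xFLAG and HA tags. All cells were transfected with the siRNA si2992, which lowers endogenous MYB and spares the rescue construct, were selected with G418 at 200 µg/ml and gave RNA 24 h after transfection. There were 3 libraries of the 2KR-MYB rescue and 3 of the ANAA-MYB rescue, called biological replicates by the submitters, each mutant represented by 1 clone, so that the mutant and the clone cannot be told apart. Control, knockdown, WT-MYB and D152V-MYB libraries were not analysed here, so every value sets one rescue against the other.

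The integrated stress response starts at eIF2, the factor that brings the initiator tRNA to the ribosome. When a stress kinase phosphorylates eIF2, translation falls in general while the mRNA of the bZIP transcription factor ATF4 is translated more, and ATF4 then switches on genes for amino acid import and synthesis, tRNA charging, redox balance and, through DDIT3 (CHOP), for recovery of translation or cell death. ATF4 is best known as a product controlled at translation, which an mRNA level does not show. Erythroid cells use the heme-sensing eIF2 kinase of the same pathway to match globin synthesis to heme.

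Expression was deposited as FPKM, fragments scaled to transcript length and to library size, which allows levels to be compared between genes. The depth behind the values is unknown, as FPKM holds no counts. Of the 34 genes, 32 averaged 1 FPKM or more across the 6 libraries and were tested among 12634 genes on log2(FPKM + 1) with limma, at a Benjamini-Hochberg adjusted p of 0.01. Fold changes are 2KR-MYB minus ANAA-MYB on this scale. Because 1 is added, the true change of a gene near 1 FPKM is larger than the value given. The FPKM of a library summed to between 579920 and 633662. MYB stood at 69.0, 61.2 and 67.5 FPKM with 2KR-MYB and at 53.6, 55.3 and 62.0 FPKM with ANAA-MYB (log2 fold change 0.21, standard error 0.070, limma adjusted p = 0.062). As a value for the whole gene, it does not separate the rescue construct from endogenous MYB left by the siRNA. The 8 erythroid marker genes set down for K562 were all expressed and all passed the filter on low values. They summed to between 1564 and 1695 FPKM for 2KR-MYB and to between 1753 and 2118 FPKM for ANAA-MYB, where GATA1 and KLF1, transcription factors of the erythroid lineage, passed as higher. The markers did not all go one way. HBG1 and HBG2 held most of the sums of the 8, with means of 364 and 835 FPKM for 2KR-MYB and 451 and 994 FPKM for ANAA-MYB. They lay higher with ANAA-MYB (log2 fold changes -0.30 and -0.24), and HBE1 and TAL1 higher with 2KR-MYB (0.23 and 0.30). HBZ overlapped (0.077), and none of these globins nor TAL1 passed. Of 8 markers of other blood cells, MS4A1, ELANE and PF4 were listed at 0 in all 6 libraries and none exceeded 3.95 FPKM. The list summed to between 3.92 and 5.32 FPKM with 2KR-MYB and to between 5.95 and 6.53 FPKM with ANAA-MYB. COL1A1 and EPCAM, markers of fibroblasts and epithelial cells, summed to 49.4 to 52.7 FPKM with 2KR-MYB and 43.8 to 45.9 FPKM with ANAA-MYB, nearly all of it EPCAM, while COL1A1 rose from 0.553 to 2.13 FPKM. What part these differences between the clones have in the values below was not tested, and in bulk RNA fewer cells of a type and less RNA per cell cannot be told apart.

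ATF4 acts at a C/EBP-ATF response element, searched here as TGATGNAA on either strand in the 250 bases before to 50 bases after the start of each gene (RefSeq, GRCh38.p14). Promoters were found for 28 of the 34 genes, all but NUPR1, PSPH, GPT2, SHMT2, ALDH1L2 and SLC7A11. The letters occurred in 7 of these 28 (25%), in 1.66% of 9301 promoters of tested genes and in 3.67% of all 27305 promoters. They are shown because they let genes with the same element be compared between the rescues, as 30 bases read in the direction of the gene, with the match in capitals (its reverse complement where the element lies on the other strand).
ASNS: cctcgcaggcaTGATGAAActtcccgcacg
SLC7A1: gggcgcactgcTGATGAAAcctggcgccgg
ATF3: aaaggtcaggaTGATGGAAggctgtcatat
CHAC1: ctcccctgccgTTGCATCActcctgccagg
HERPUD1: gacgcggcgggTTGCATCAgcccgtgccca
AARS1: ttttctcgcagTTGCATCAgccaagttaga
SLC3A2: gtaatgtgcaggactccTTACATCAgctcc
The windows lie at chr7:97872458-97872487 (minus strand) for ASNS, chr13:29595663-29595692 (minus) for SLC7A1, chr1:212565205-212565234 (plus) for ATF3, chr15:40953251-40953280 (plus) for CHAC1, chr16:56931955-56931984 (plus) for HERPUD1, chr16:70289675-70289704 (minus) for AARS1 and chr11:62881719-62881748 (plus) for SLC3A2. The starts used for ASNS and SLC3A2 are those of transcripts beginning inside the span of the gene, and those of the other 5 lie at its edge. CHAC1, HERPUD1 and AARS1 share all 8 letters of the match. A match is a description of the letters and not of binding, and the genes were chosen as genes of this pathway, so its frequency among them is no finding.

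In limma 12 members passed as higher with 2KR-MYB and 0 as lower, although 3 were lower at an unadjusted p of 0.05, as were 21.6% of all tested genes. The 12 were ATF3, PPP1R15A, HERPUD1, SLC7A11, DDIT3, ALDH1L2, SLC3A2, CEBPG, PHGDH, ATF4, SARS1 and XBP1, with log2 fold changes between 0.28 and 0.85. They made 37.5% of the 32 tested, while 5.57% of all tested genes passed as higher with 2KR-MYB and 7.42% as lower. As the list was made with earlier results of these data known, this contrast and those below describe the list and are no test of it. Of the 20 that did not pass, 12 had a log2 fold change above 0 and 8 one below 0, so that 24 of the 32 lay above 0, as did 46.8% of all tested genes. The median of the 32 was 0.28 against -0.015 over all tested genes. The 3 values with 2KR-MYB were all above the 3 with ANAA-MYB in 16 of the 32 (50%), as in 20.1% of all tested genes, and all below them in 3, ATF5, CBS and MTHFD2, as in 24.8% of all tested genes. The count of 12 was 7 without 2KR-MYB replicate 1, 6 without 2KR-MYB replicate 2 and 5 without ANAA-MYB replicate 2, with 0 lower each time, while the calls over all genes went from 1642 to 831, 855 and 859. With no filter on low values, 5 members were higher, with 1.38% of all genes, and 0 lower, with 1.92%. At an adjusted p of 0.05, 15 were higher, with 12% of all genes, and ATF5 was lower, with 14.9%. The same 12 passed after upper quartile scaling and after quantile normalization, although upper quartile scaling turned the share of all genes past the threshold that were higher with 2KR-MYB from 42.9% to 54.5%. All genes then gave 7.51% higher and 6.27% lower with upper quartile scaling, and 6.72% higher and 6.81% lower with quantile normalization. The median of the 32 was 0.32 and 0.28 with these scalings.

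**Figure D1:**
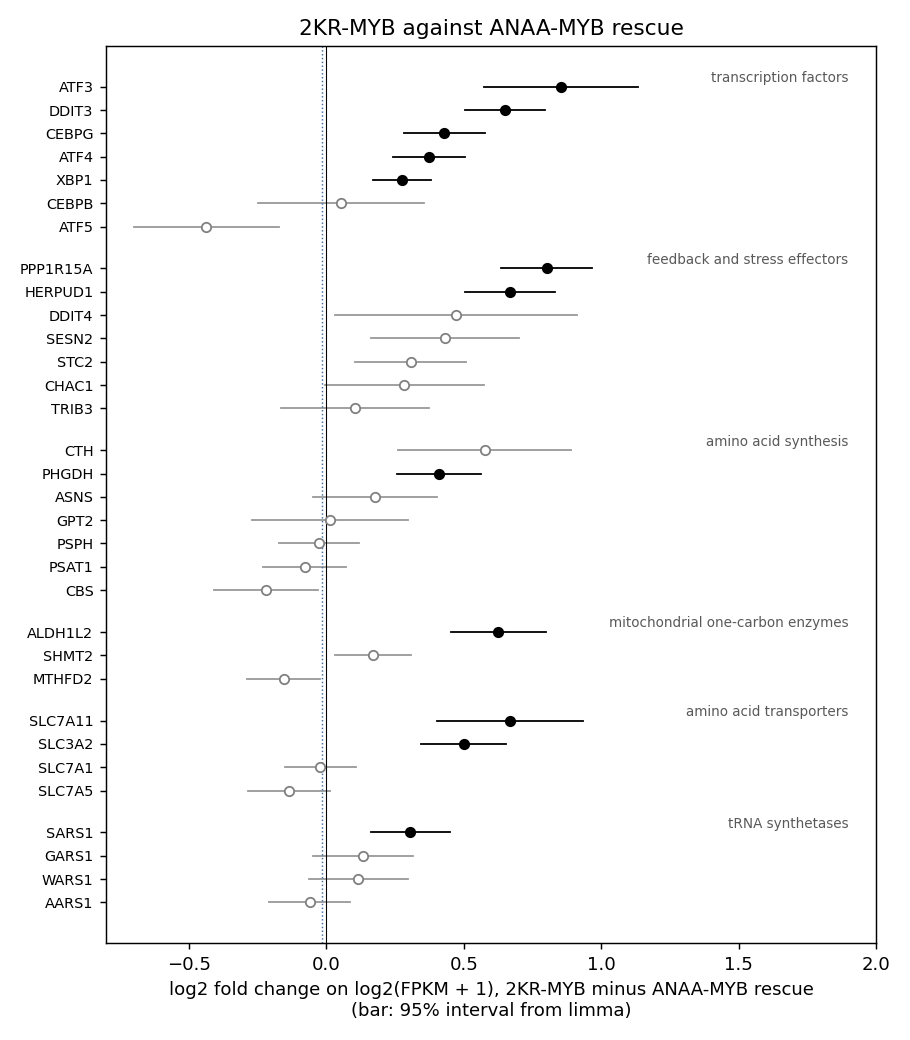
Log2 fold change of each tested stress response gene on log2(FPKM + 1), 2KR-MYB minus ANAA-MYB rescue, ordered within its role, with the 95% interval from limma (3 libraries each). Filled points passed an adjusted p of 0.01 and lie between 0.28 and 0.85, all to the right of 0, and the dotted line is the median of all tested genes at -0.015.

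The transcription factors of the response, 7 of them tested, gave 5 of the 12, where 5.57% of all tested genes passed as higher. ATF4 (ENSG00000128272, chromosome 22, 39520559 to 39522686 on GRCh38) had the highest level of the 34 genes, with 299, 305 and 272 FPKM for 2KR-MYB and 233, 217 and 225 FPKM for ANAA-MYB. All 2KR-MYB libraries lay above all ANAA-MYB libraries, by 1.30 times on average. The log2 fold change was 0.37 (standard error 0.057, limma adjusted p = 0.0026), and the adjusted p was 0.013 without 2KR-MYB replicate 1, 0.014 without 2KR-MYB replicate 2 and 0.013 without ANAA-MYB replicate 2. DDIT3 (ENSG00000175197, chromosome 12, 57516588 to 57520517), the CHOP factor that ATF4 induces, stood at 62.7, 73.0 and 71.4 FPKM with 2KR-MYB and at 43.4, 42.6 and 44.6 FPKM with ANAA-MYB. The ANAA-MYB libraries were close to each other and well below the lowest 2KR-MYB library. On the log2 scale DDIT3 differed by 0.65 (standard error 0.063, limma adjusted p = 0.00035) and passed with any 1 library left out. ATF3 (ENSG00000162772, chromosome 1, 212565407 to 212620777), a repressor induced by ATF4, gave 12.4, 14.97 and 10.4 FPKM with 2KR-MYB and 7.06, 5.89 and 6.45 FPKM with ANAA-MYB. Its groups did not overlap, and its ratio of 1.95 was the highest of the 34. On the log2 scale ATF3 differed by 0.85 (standard error 0.12, limma adjusted p = 0.0020), and the adjusted p was 0.010, just over the threshold, without ANAA-MYB replicate 2. CEBPG (ENSG00000153879, chromosome 19, 33373709 to 33382686), a bZIP partner of ATF4, was at 16.3, 17.3 and 15.7 FPKM against 12.5, 11.2 and 12.2 FPKM, again fully apart. Its log2 fold change was 0.43 (standard error 0.064, limma adjusted p = 0.0024), with an adjusted p of 0.011, 0.012 and 0.010 without 2KR-MYB replicate 1, 2KR-MYB replicate 2 and ANAA-MYB replicate 2. XBP1 (ENSG00000100219, chromosome 22, 28794560 to 28800569), the factor whose mRNA is spliced by IRE1 in the unfolded protein response, was at 50.4, 51.8 and 53.1 FPKM against 41.3, 43.8 and 42.7 FPKM. The groups were apart, the log2 fold change was the smallest of the 12 at 0.28 (limma adjusted p = 0.0039), and with any 1 library left out the adjusted p was between 0.011 and 0.018.

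ATF5, a bZIP factor of the mitochondrial stress response that is also controlled at translation, stood on the other side. Its values were 34.3, 32.3 and 25.2 FPKM with 2KR-MYB and 45.9, 40.7 and 38.0 FPKM with ANAA-MYB. All ANAA-MYB libraries were above all 2KR-MYB libraries, and the log2 fold change of -0.44 (95% interval -0.70 to -0.17, limma adjusted p = 0.026) did not pass. CEBPB, a partner of CHOP and ATF4, had overlapping libraries of 4.08 to 6.18 FPKM and 4.49 to 5.31 FPKM (log2 fold change 0.054, 95% interval -0.25 to 0.35). NUPR1, a small stress-induced chromatin protein, was between 0.209 and 1.17 FPKM with 2KR-MYB and between 0.240 and 0.951 FPKM with ANAA-MYB, too low to be tested.

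**Figure D2:**
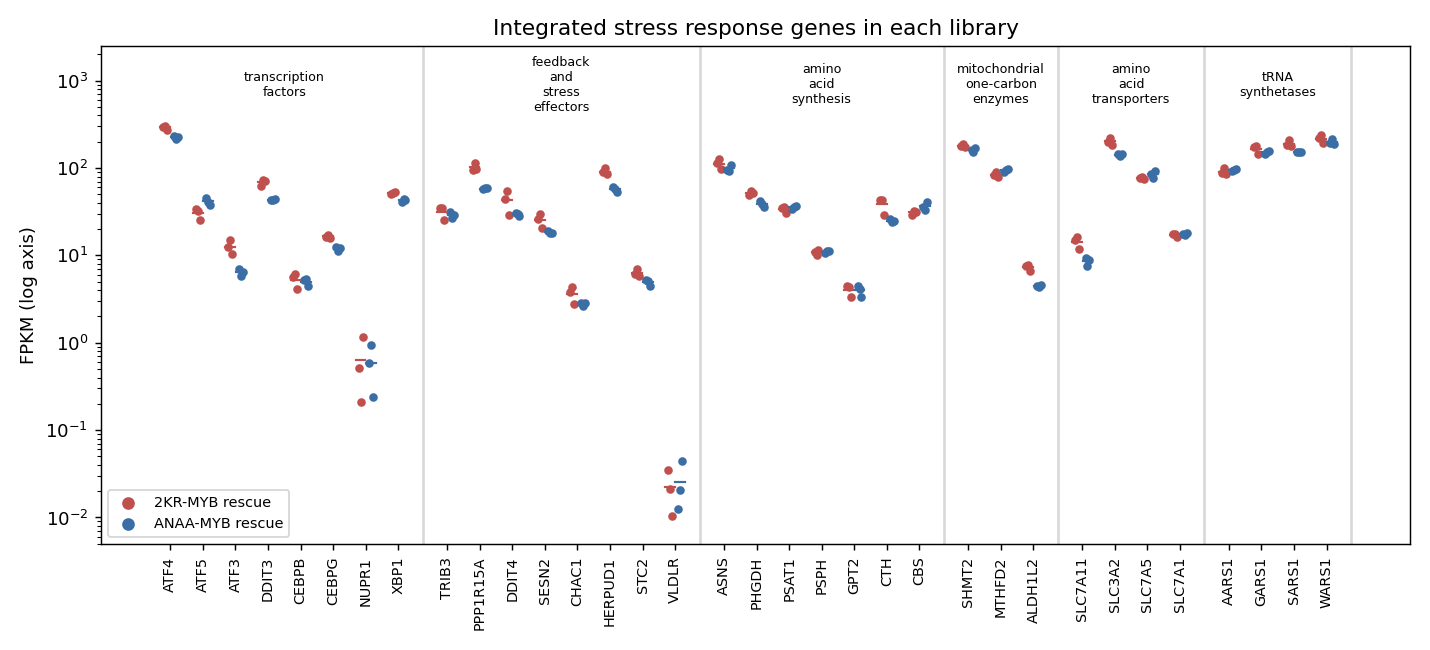
FPKM of the 34 genes in each library on a log axis, grouped by role, with 2KR-MYB in red and ANAA-MYB in blue (points are libraries, short lines are means, 3 libraries each). Levels run from 0.0103 FPKM of VLDLR to 305 FPKM of ATF4, and PPP1R15A, HERPUD1, DDIT3, ALDH1L2 and SLC3A2 show the rescues fully apart.

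Of the 7 feedback genes and other effectors that were tested 2 passed as higher, as did 5.57% of all tested genes. PPP1R15A (GADD34, ENSG00000087074, chromosome 19, 48872421 to 48876058), which brings a phosphatase to eIF2 and so ends the response, was measured at 95.8, 115 and 97.1 FPKM for 2KR-MYB and at 57.1, 59.0 and 58.7 FPKM with ANAA-MYB. The 3 ANAA-MYB values were nearly equal and the lowest 2KR-MYB library was far above them. With a difference of 0.80 on the log2 scale (standard error 0.072, limma adjusted p = 0.00025) PPP1R15A had the smallest adjusted p of the 32, and it passed with any 1 library left out. HERPUD1 (ENSG00000051108, chromosome 16, 56932142 to 56944864), a membrane protein of endoplasmic reticulum degradation, was at 89.2, 99.0 and 85.5 FPKM against 60.8, 57.1 and 53.1 FPKM. Its libraries were also apart, by 1.60 times on average, and by 0.67 on the log2 scale (standard error 0.070, limma adjusted p = 0.00049), and passed with any 1 library left out.

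DDIT4 (REDD1), an inhibitor of mTORC1, was measured at 43.8, 55.1 and 29.1 FPKM for 2KR-MYB and at 30.7, 29.8 and 28.0 FPKM with ANAA-MYB. Its 2KR-MYB replicate 3 lay among the ANAA-MYB values, so the groups overlapped (log2 fold change 0.47, 95% interval 0.033 to 0.91, limma adjusted p = 0.10). Without that library the log2 fold change was 0.72 and the adjusted p 0.0034, and without 2KR-MYB replicate 2 they were 0.27 and 0.26. No other library left out made DDIT4 pass. SESN2, a leucine sensor that also restrains mTORC1, was at 26.2, 30.0 and 20.6 FPKM against 18.9, 18.3 and 18.2 FPKM. Here the groups were apart, yet 2KR-MYB replicate 3 was again the closest to the other rescue. SESN2 differed by 0.43 on the log2 scale (limma adjusted p = 0.028), and by 0.58 (adjusted p = 0.0023) without that library. Without 2KR-MYB replicate 2 SESN2 differed by 0.31 (limma adjusted p = 0.070), and no other library left out made it pass. STC2, a secreted glycoprotein, was apart at 5.86 to 6.97 against 4.44 to 5.21 FPKM (0.31, limma adjusted p = 0.034). CHAC1, which breaks down glutathione, had 3.80, 4.35 and 2.81 FPKM against 2.88, 2.65 and 2.82 FPKM and overlapped through 2KR-MYB replicate 3 alone (0.28, limma adjusted p = 0.13). TRIB3, a pseudokinase that holds ATF4 and CHOP in check, overlapped at 25.4 to 34.7 against 26.9 to 31.2 FPKM (0.11, 95% interval -0.16 to 0.38). VLDLR, a lipoprotein receptor, did not exceed 0.0442 FPKM in any library and was not tested.

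Among the enzymes of amino acid synthesis 1 of 7 passed as higher, beside 5.57% of all tested genes. PHGDH (ENSG00000092621, chromosome 1, 119711934 to 119744215), which commits glycolytic carbon to serine, was measured at 49.1, 54.6 and 51.8 FPKM for 2KR-MYB and at 41.9, 38.3 and 36.1 FPKM with ANAA-MYB. The groups did not overlap, and the log2 fold change was 0.41 (standard error 0.066, limma adjusted p = 0.0033), with an adjusted p between 0.011 and 0.016 without replicate 2 or replicate 3 of either rescue. The other serine enzymes, PSAT1 and PSPH, had overlapping libraries, at 33.9 ± 2.68 against 35.8 ± 1.33 FPKM and 10.8 ± 0.610 against 11.04 ± 0.411 FPKM (SD, n = 3 each). Their 95% intervals on the log2 scale ran from -0.23 to 0.072 and from -0.17 to 0.12, below the estimate of PHGDH. ASNS, the asparagine synthetase and a textbook ATF4 target, was at 113, 127 and 97.8 FPKM against 95.1, 93.3 and 109 FPKM, with libraries that overlapped (0.18, 95% interval -0.050 to 0.40, limma adjusted p = 0.22). Its pseudogene ASNSP1, to which its reads could be given, was at 1.84 ± 0.259 against 0.574 ± 0.0520 FPKM (SD, n = 3) and passed as higher with 2KR-MYB. CTH, the cystathionine gamma-lyase that makes cysteine, was at 42.5, 43.4 and 29.1 FPKM against 26.2, 24.1 and 24.7 FPKM. All its 2KR-MYB libraries were above the others, replicate 3 by the least. The log2 fold change of 0.58 did not pass (limma adjusted p = 0.017) but was 0.76 without that library (adjusted p = 0.00037). Without 2KR-MYB replicate 2 it was 0.48 (limma adjusted p = 0.060), and no other library left out made CTH pass. CBS, the enzyme before CTH in transsulfuration, was lower in all 2KR-MYB libraries, at 29.3 to 32.6 against 32.7 to 40.9 FPKM (-0.22, limma adjusted p = 0.085). GPT2, the mitochondrial alanine transaminase, was at 4.04 ± 0.623 and 3.99 ± 0.588 FPKM (SD, n = 3), a log2 fold change of 0.014 with a 95% interval from -0.27 to 0.30.

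Of the 3 mitochondrial enzymes that handle serine-derived folate units 1 passed as higher, as did 5.57% of all tested genes. ALDH1L2 (ENSG00000136010, chromosome 12, 105019790 to 105084458), which oxidizes formyl-tetrahydrofolate to yield NADPH, was measured at 7.63, 7.79 and 6.71 FPKM for 2KR-MYB and at 4.42, 4.30 and 4.55 FPKM with ANAA-MYB. The rescues were clearly apart, and the difference of 0.63 on the log2 scale (standard error 0.075, limma adjusted p = 0.00082) passed with any 1 library left out. SHMT2, which splits serine to feed the pathway, was at 173 to 190 against 151 to 171 FPKM (0.17, limma adjusted p = 0.072). MTHFD2, which follows SHMT2, was lower in all 2KR-MYB libraries, at 79.9 to 90.6 against 90.6 to 96.8 FPKM (-0.16, limma adjusted p = 0.081), the nearest libraries being almost equal.

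Of the 4 transporters 2 passed as higher, the subunits of the cystine carrier, beside 5.57% of all tested genes. SLC3A2 (CD98, ENSG00000168003, chromosome 11, 62856109 to 62888860), the heavy chain that carries several light chains to the membrane, was measured at 200, 221 and 185 FPKM for 2KR-MYB and at 146, 137 and 144 FPKM with ANAA-MYB. No libraries overlapped, and the log2 fold change was 0.50 (standard error 0.068, limma adjusted p = 0.0015), which held with any 1 library left out but not with no filter on low values (adjusted p = 0.012). SLC7A11 (xCT, ENSG00000151012, chromosome 4, 138164097 to 138242349), the cystine light chain, was at 14.9, 16.1 and 11.9 FPKM against 9.36, 7.60 and 8.80 FPKM, also apart. Its log2 fold change was 0.67 (standard error 0.12, limma adjusted p = 0.0044), and the adjusted p was between 0.011 and 0.020 with any library but 2KR-MYB replicate 3 left out. SLC7A5 (LAT1), the leucine light chain, was instead at 76.8, 79.4 and 74.8 FPKM against 84.6, 77.7 and 92.1 FPKM, overlapping, with a log2 fold change of -0.14 (95% interval -0.29 to 0.014). That interval lies wholly below the interval of SLC3A2, 0.34 to 0.66. SLC7A1, an arginine and lysine transporter that needs no heavy chain, was at 17.3 ± 0.863 and 17.5 ± 0.515 FPKM (SD, n = 3), a log2 fold change of -0.021 with a 95% interval from -0.15 to 0.11.

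Of the 4 tRNA synthetases, SARS1 (ENSG00000031698, chromosome 1, 109213893 to 109238182), which charges serine tRNA, passed as higher, as did 5.57% of all tested genes. It stood at 184, 209 and 179 FPKM with 2KR-MYB and at 154, 152 and 154 FPKM with ANAA-MYB. The rescues were apart, but the log2 fold change of 0.31 (limma adjusted p = 0.0093) was near the threshold, and with any 1 library left out the adjusted p was between 0.010 and 0.034. GARS1 for glycine (166 ± 17.9 against 151 ± 6.28 FPKM), WARS1 for tryptophan (217 ± 20.7 against 200 ± 13.1 FPKM) and AARS1 for alanine (91.0 ± 7.81 against 94.7 ± 2.69 FPKM, SD, n = 3 each) had overlapping libraries and limma adjusted p of 0.25, 0.30 and 0.52.

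The 7 promoters with the letters TGATGNAA belonged to 3 genes that passed, ATF3, HERPUD1 and SLC3A2, and to 4 that did not, CHAC1, ASNS, SLC7A1 and AARS1. As 12 of the 32 tested members passed (37.5%), these counts are no finding about the letters. HERPUD1 and AARS1, with the same 8 letters, had log2 fold changes of 0.67 and -0.060. The endoplasmic reticulum stress response element, searched on both strands as CCAAT followed after 9 bases by CCACG, occurred in 1 of the 28 promoters, that of XBP1, and in 0.151% of promoters of tested genes. It is shown as the only such match (chr22:28800597-28800626 on GRCh38.p14, minus strand, match in capitals).
XBP1: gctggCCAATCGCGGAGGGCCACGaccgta

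Within the 2KR-MYB rescue most of the stress response genes were lowest in the same library and highest in the same library. Replicate 3 was the lowest of the 3 in 26 of the 32 tested genes, against 29.4% of all tested genes, and replicate 2 was the highest in 27 of the 32, against 35.5%. In replicate 3 the median of the 32 lay 0.16 below the mean of the other two on the log2 scale, while the median of all tested genes lay 0.022 above it. PSPH, DDIT3, XBP1, PHGDH, CBS and PPP1R15A were the members in which another 2KR-MYB library was the lowest. The coefficient of variation had a median of 8.79% over the 32 genes in the 2KR-MYB rescue and of 4.51% in the ANAA-MYB rescue, where all tested genes had medians of 6.10% and 6.34%. DDIT4 was the most variable tested member, with 30.5% in the 2KR-MYB rescue and 4.68% in the ANAA-MYB rescue. Without 2KR-MYB replicate 3 there were again 12 higher and 0 lower, of which 9 were the same, with CTH, DDIT4 and SESN2 in place of PHGDH, SARS1 and XBP1. All tested genes then gave 3.62% higher and 5.40% lower.

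**Figure D3:**
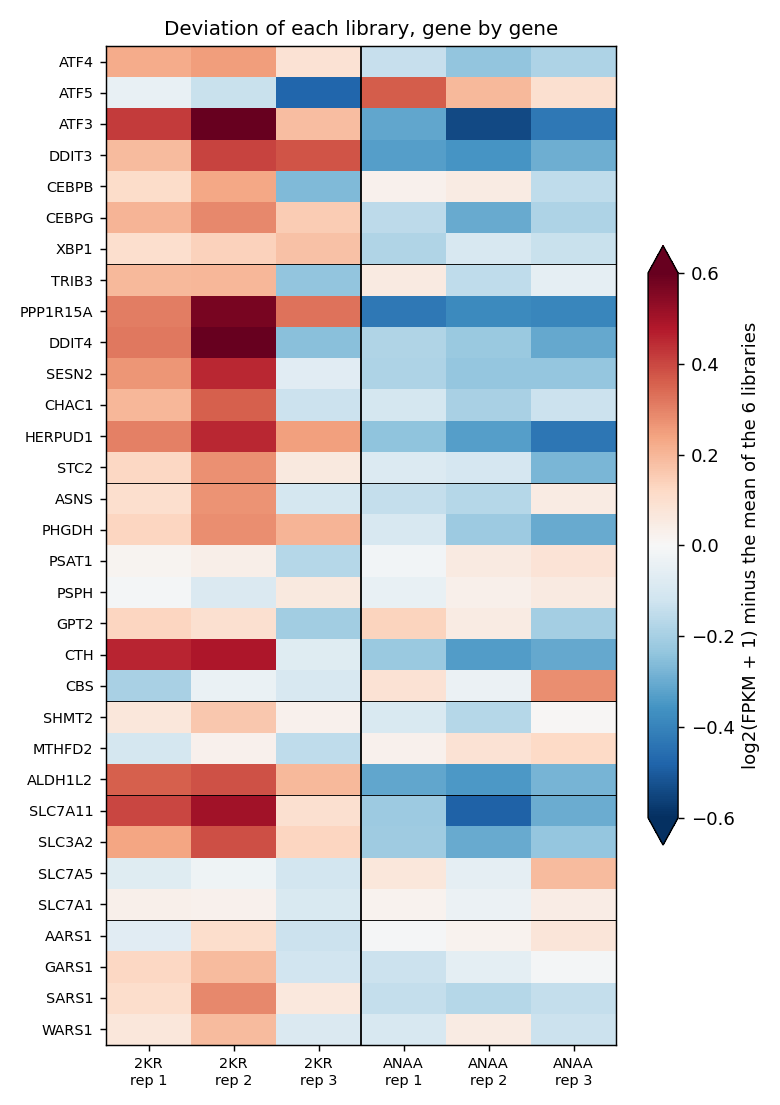
Deviation of log2(FPKM + 1) in each library from the mean of the 6 libraries, for the 32 tested genes, with red above and blue below that mean and the color scale ending at 0.6 in either direction. In 26 of the 32 rows 2KR-MYB replicate 3 has the lowest value of its rescue, and in the 12 genes that passed all 2KR-MYB cells are red and all ANAA-MYB cells blue.

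Each member was set beside its neighbors, the 10 tested genes on either side of it on the chromosome. For the 12 that passed, the median log2 fold change of the neighbors was between -0.17 and 0.12, against -0.015 over all tested genes. The 12 were picked for high fold changes, so medians below theirs follow from that choice and are no finding. Whether a chromosome change in 1 clone had a part was not tested. The lowest median belonged to ATF3, whose 20 neighbors from TRAF5 to GPATCH2 had a median of -0.17, with 15 of them lower in the 2KR-MYB rescue, while ATF3 itself was at 0.85. PPP1R15A, at 0.80, had neighbors with a median of -0.11, and DDIT3, at 0.65, neighbors with a median of 0.072. The members that did not pass varied. For ASNS the neighbors had a median of 0.15, close to its own 0.18, and for GARS1 one of 0.12, close to its own 0.13. CTH, at 0.58, had neighbors with a median of -0.039, and AARS1, at -0.060, neighbors with a median of 0.12.

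Genes around the response were counted from 6 further lists, also made with earlier results of these data known, so their counts are description. Of all tested genes, 5.57% passed as higher with 2KR-MYB and 7.42% as lower. Of 17 genes for eIF2, its kinases, its exchange factor and proteins that regulate these, 1 passed. This was EIF2AK3 (PERK), the kinase of the endoplasmic reticulum, at 10.48, 11.99 and 12.04 FPKM with 2KR-MYB and 7.69, 7.94 and 8.86 FPKM with ANAA-MYB (0.45, limma adjusted p = 0.0045). Its adjusted p was between 0.017 and 0.022 without 2KR-MYB replicate 2 or 3 or ANAA-MYB replicate 1 or 2. The kinases EIF2AK1, EIF2AK2 and EIF2AK4 had log2 fold changes of 0.035, 0.077 and -0.011, and PPP1R15B, the constitutive counterpart of PPP1R15A, had one of -0.20 (limma adjusted p = 0.017).

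In the unfolded protein response of the endoplasmic reticulum, 6 of 23 genes passed in limma, all higher with 2KR-MYB, where 5.57% of all tested genes were. At an unadjusted p of 0.05 there were 9 higher and 0 lower, against 17.8% and 21.6% of all tested genes. The median of the 23 was 0.16. MANF, a secreted factor induced by this stress, was at 72.0, 82.6 and 79.5 FPKM against 52.0, 55.2 and 47.6 FPKM (0.59, limma adjusted p = 0.00088). SEL1L, a scaffold of the degradation complex, was at 24.4 ± 1.22 against 18.3 ± 0.498 FPKM (SD, n = 3) and passed at 0.40. DNAJB9 and PDIA4, which help proteins fold in this compartment, passed at 0.52 and 0.32, but DNAJB9 was lost when any library but 2KR-MYB replicate 3 was left out, with an adjusted p up to 0.016, and PDIA4 when any 1 of the 6 was left out, with an adjusted p up to 0.019. The chaperone BiP (HSPA5), the most abundant of the 23 after HSP90B1, was at 538 ± 62.5 and 597 ± 5.59 FPKM (SD, n = 3), a log2 fold change of -0.16 that did not pass (limma adjusted p = 0.18). With 1 library left out, 2 or 3 of the 23 passed, and 2.49% to 3.62% of all tested genes passed as higher.

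Of 18 tested genes in a list of further genes associated with ATF4, 4 passed as higher and 1 as lower. All tested genes gave 5.57% higher and 7.42% lower. GDF15, a stress hormone, was at 56.4, 69.8 and 45.5 FPKM against 26.2, 25.9 and 26.1 FPKM (1.08, limma adjusted p = 0.00086). VEGFA, an angiogenic factor, and KLHL24, a ubiquitin ligase adaptor, rose by 0.52 and 0.45, and KLHL24 had an adjusted p of 0.011 without 2KR-MYB replicate 2. EIF4EBP1, which blocks cap-dependent translation, was lower at 33.7 ± 2.28 against 42.4 ± 0.812 FPKM (SD, n = 3; -0.33, limma adjusted p = 0.0048), with an adjusted p of up to 0.020 when any library but 2KR-MYB replicate 2 was left out. The number that passed was 3 without 2KR-MYB replicate 1 or 2 or any 1 of the ANAA-MYB libraries. All tested genes then gave 2.49% to 3.21% higher and 4.01% to 4.79% lower. SLC1A4, a neutral amino acid transporter, was the other gene that passed.

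The synthetases outside the 34 gave 1 higher and 2 lower of 16, with a median of -0.072, beside 5.57% higher and 7.42% lower of all tested genes. YARS1 for tyrosine was higher at 187 ± 15.4 against 150 ± 5.30 FPKM, and EPRS1 for glutamate and proline (104 ± 5.05 against 131 ± 8.34 FPKM) and HARS1 for histidine (37.7 ± 0.914 against 44.1 ± 0.931 FPKM, SD, n = 3 each) were lower. None of the 3 calls was safe from the loss of 1 library. With 1 library left out, all tested genes gave 2.49% to 3.62% higher and 4.01% to 5.40% lower. HARS1 was lost when any 1 of the 6 was left out (limma adjusted p up to 0.036) and with either scaling, EPRS1 when any but ANAA-MYB replicate 1 was (up to 0.019) and YARS1 when any but 2KR-MYB replicate 3 was (up to 0.036), and at most 1 of the 16 then passed. Among 14 genes of folate metabolism outside the 34, 12 were tested and 1 passed, TYMS, the thymidylate synthase. TYMS was lower at 74.1, 71.0 and 80.6 FPKM against 110, 115 and 117 FPKM (-0.60, limma adjusted p = 0.00033), as were 7.42% of all tested genes. ALDH1L1, too low to be tested, was at 0, 0 and 0.109 FPKM against 1.84, 2.43 and 1.04 FPKM, the opposite direction to ALDH1L2. In glutathione synthesis 0 of 6 genes passed in limma, with log2 fold changes between -0.19 and 0.18. At an unadjusted p of 0.05 there were 1 higher and 1 lower, against 17.8% and 21.6% of all tested genes.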

How the data were processed

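RNA was sequenced from 3 libraries of the 2KR-MYB rescue and 3 of the ANAA-MYB rescue (strand-specific poly(A) libraries, 150 bp pairs). Per the labels the authors used bcl2fastq 2.18.0.12, Trimmomatic 0.36, TopHat2 2.1.1 against GRCh38, Cufflinks and Cuffdiff 2.2.1, and the deposited values are FPKM for each gene in each library. The annotation, the strand setting and the scaling between libraries are not stated in the sources at hand. In low values (under 0.5 FPKM) at most 7.40% of ratios between libraries fell within 1% of a common ratio, so reads were not recovered. The 12 other columns of per-sample values were not used.

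Symbols were matched for 55854 of 58288 identifiers. The test was run in limma 3.58.1 (R 4.3.3) on log2(FPKM + 1), for genes averaging 1 FPKM or more (empirical Bayes with trend, Benjamini-Hochberg adjustment over 12634 genes, threshold 0.01), and was tested on simulated data. P-values measure the spread between libraries of 1 clone per mutant. Alternatives were a pseudocount of 0.1, no filter, a stricter filter of 5 FPKM, upper quartile scaling, quantile normalization, a replicate block, each library left out and a threshold of 0.05. The genes named are the 34 members, MYB and up to 4 genes past the threshold of each further list with the smallest adjusted p. SLC1A4, other genes that did not pass and the marker genes are outside this rule and were chosen after their values were seen; the result of 1 marker gene is not reported here. Members and lists were chosen with earlier results of these data known. Positions and promoters came from RefSeq (GRCh38.p14). Figures were drawn with matplotlib 3.10.9.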

Additional observations from a re-analysis of the deposited data

How the results depend on the processing

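The direction of each of the 12 calls and the median over the members (0.21 to 0.32) held under all alternatives run. With no filter on low values, which added genes to the adjustment, the number of members past the threshold was 5 (PPP1R15A, DDIT3, HERPUD1, ALDH1L2 and XBP1), and 0 for eIF2 genes, 0 for the other synthetases, 2 for the further ATF4-associated genes and 2 for the unfolded protein response. All genes then gave 1.38% higher and 1.92% lower. At a threshold of 0.05 there were 16 members (15 higher and 1 lower, ATF5), 3 eIF2 genes, 5 other synthetases, 8 further ATF4-associated genes and 1 glutathione gene. All genes gave 12% higher and 14.9% lower at this threshold. Leaving out single libraries gave counts of 5 to 12 members, 0 to 1 eIF2 genes, 0 to 1 other synthetases, 3 to 4 further ATF4-associated genes and 2 to 3 unfolded protein response genes. All genes then gave 2.49% to 3.62% higher and 4.01% to 5.40% lower. The log2 fold change of MYB was 0.16 to 0.27 and never passed 0.01. Same-numbered libraries of the 2 rescues did not deviate together: their deviations correlated at -0.052, -0.035 and -0.0026, and those of differently numbered libraries at -0.035 to 0.064. Whether same-numbered libraries were prepared together is not known. With the replicate number as a block, 8 members were higher, with 3.25% of all tested genes, and 1, ATF5 (adjusted p = 0.0067), was lower, with 5.37%, 0 other synthetases passed, and the calls of CEBPG, PHGDH, SLC7A11 and SARS1 had adjusted p of 0.011, 0.011, 0.013 and 0.017. Over all genes the block gave 1089 calls against 1642. Depth is unknown, so the precision of low values such as NUPR1 could not be judged.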
